A study of Mus musculus with 24 samples.

Results

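The genes described here are the 4 adult haemoglobin genes of the mouse, Hbb-bs, Hbb-bt, Hba-a1 and Hba-a2, taken by symbol from tables of RNA levels in cortex and read as a measure of blood held in the tissue pieces. All 4 had a row in each of the 4 tables, out of 14769 symbols found in any table. Total RNA depleted of ribosomal RNA was sequenced from cortex of male mice, 3 to 4 months old, after transient occlusion of the middle cerebral artery, a model of ischaemic stroke in which a filament blocks the artery and is then withdrawn. Occlusion lasted 1 h and was followed by 1 day of reperfusion in every animal. The 24 libraries formed 4 groups of 6 and came from 12 animals, 6 WT and 6 KO, each of which gave a CL library and a PI library. KO animals lacked ciRS-7 (Cdr1as), a circular RNA, and the label C57BL/6N-Cdr1asem1Nikr, a strain with an edited Cdr1as, is given for WT and KO animals alike. All groups had undergone the occlusion, so no group is from unoperated animals, and the marks CL and PI, which the labels do not spell out, are kept here. The labels' protocols do not say whether blood was flushed from the vessels before the cortex was taken.

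Haemoglobin carries oxygen in red blood cells and is assembled from alpha and beta globin chains, each holding a haem group. In adult mice the alpha chains come from Hba-a1 and Hba-a2, neighbouring copies of one gene, and in this strain background the beta chains come from Hbb-bs and Hbb-bt. Young red cells still carry much globin mRNA after they enter the circulation, so that blood left in vessels or leaked into tissue brings globin transcripts into a brain sample, and low globin expression is also known in neurons and glia. In bulk tissue, fewer blood cells and less globin RNA per cell cannot be told apart, nor can blood be told apart from globin made by brain cells.

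Each pair of genes is nearly identical in sequence, which bears on every value below, because reads from the shared stretches cannot be assigned by sequence to one copy. On GRCm38 (the mm10 build named in the submitters' processing notes), with GENCODE M21 gene models, Hba-a1 lies at chr11:32283511-32284465 and Hba-a2 at chr11:32296489-32297298 on the plus strand. Hbb-bs lies at chr7:103826534-103828096 and Hbb-bt at chr7:103812524-103813996 on the minus strand. Each gene has 3 exons. The coding sequences of the alpha pair, 429 bases long, differ at 1 base (C381T, Hba-a1 first, counted from 1 at the start codon), and those of the beta pair, 444 bases long, differ at 1 base (C417T, Hbb-bs first), with 0 amino acid differences in either pair. The stretches of exon 3 around the single difference, shown because they are the only coding bases that separate the copies, are given on the coding strand with the differing base in capitals.
Hba-a1 (chr11:32284329-32284358, plus strand): catgcctctctggaCaaattccttgcctct
Hba-a2 (chr11:32297146-32297175, plus strand): catgcctctctggaTaaattccttgcctct
Hbb-bs (chr7:103826677-103826706, minus strand): gtggctggagtggcCgctgccctggctcac
Hbb-bt (chr7:103812668-103812697, minus strand): gtggctggagtggcTgctgccctggctcac
Of the 100-base windows along the transcript, 74.5% of those of Hba-a2 and 56.5% of those of Hba-a1 occur unchanged in the partner, as do 62.6% of those of Hbb-bs and 54.8% of those of Hbb-bt. How the authors counted reads that fit both copies is not given in the sources used here, so the split of a level between the copies is uncertain, while the sum of a pair in CPM does not depend on the split unless shared reads were dropped.

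The 4 genes also share upstream features that the choice of genes did not use. In the 120 bases before the RefSeq start of each gene (GRCm38.p6), 4 short motifs were searched on both strands. In the GENCODE models the Hba-a1 window and part of each other window lie within annotated exons. The box CCAAT was found in 4 of 4 genes and in 21.3% of 32851 promoter windows of the same length. The box CACCC, the core of the site of the red cell factor KLF1, was found in 4 of 4 genes and in 31.7% of windows. The box TATAA was found in 4 of 4 genes and in 11.9% of windows. The box GATAA, a core of the GATA1 site, was found in 0 of 4 genes and in 10.5% of windows. The boxes found in 4 of 4 genes occurred together in 0.688% of windows, a description only, since this combination was set from these same genes. The windows of Hba-a1 and Hba-a2 share an unbroken run of 117 bases and are not separate readings. Those of Hbb-bs and Hbb-bt share a run of 14 bases, and those of Hba-a2 and Hbb-bs one of 9. The part of the window outside annotated exons is shown for the higher gene of each pair, with the matches in capitals. Whether these boxes bear on the levels below was not tested. In Hbb-bs the CACCC match lies just upstream of the stretch shown.
Hba-a2 (chr11:32296372-32296488, plus strand): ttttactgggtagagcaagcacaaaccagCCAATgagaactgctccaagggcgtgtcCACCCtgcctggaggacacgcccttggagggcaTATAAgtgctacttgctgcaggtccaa
Hbb-bs (chr7:103827929-103828011, minus strand): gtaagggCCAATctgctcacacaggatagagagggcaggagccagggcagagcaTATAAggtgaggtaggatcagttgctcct
A match of letters is a description of the window and does not show a bound factor.

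The values are log2 CPM, gene counts scaled to a common library total, 1 table per pair of groups, and each table was scaled on its own, so a level is read within its table. In every gene and group the 2 lowest of the 6 deposited values are equal and the 2 highest are equal, because the outermost values were replaced by the group's quartiles before deposit. The 4 inner values follow from this by arithmetic, but not the extremes, so a lowest or highest value below is a quartile shared by 2 libraries. The depth read from the steps between low values was 3.73 to 10.5 M reads (megareads), with a median of 6.91 M reads. CL KO replicate 6 was read at 3.73 M reads, and the other libraries had 5.26 M reads or more. The depth of that library, on which the upper limit of 3 reads below rests, is uncertain, because whole multiples of it make the same values whole. A count of 3 reads, taken as the limit for a gene with none, equals 0.286 to 0.803 CPM, a limit that covers counting error only. The row named Cdr1as stood at 2558 to 3890 CPM in WT libraries and at 0.166 CPM or less in KO libraries, so the genotypes followed the labels.

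The beta gene Hbb-bs was the most abundant of the 4, and all 4 were low transcripts. Per kilobase of transcript, Hbb-bs had a median of 36.2 CPM per kb over the 24 libraries, Hba-a2 11.2, Hbb-bt 6.78 and Hba-a1 2.82. The lengths were those of the GENCODE transcripts, 628 bases for Hbb-bs, 554 for Hba-a2, 703 for Hbb-bt and 699 for Hba-a1. Those of Hba-a1 and Hbb-bt include bases upstream of the RefSeq start. Shorter lengths for these genes would raise their levels per kilobase. The 4 genes together took a median of 35.9 CPM, with a range of 10.8 to 61.8 CPM. The ratio of beta to alpha, from the sums of each pair per kilobase within a library, had a median of 3.11. It ranged from 1.49 to 5.50, so beta exceeded alpha in every library on the deposited values. If reads that fit both copies were dropped, the pairs could have lost unequal shares, which would shift this ratio. The lowest ratio was that of CL KO animal 6, where the values of Hbb-bt, Hba-a1 and Hba-a2 are quartiles shared with another library. The ratio of such a library before its values were replaced is not known.

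Hbb-bs in CL WT libraries ran from 9.62 CPM (lowest) through a median of 17.7 to 34.3 CPM (highest). In PI WT libraries it ran from 21.4 through 22.1 to 31.1 CPM. The PI libraries lay inside the upper part of the CL range, CL WT animals 1 and 6 were the highest of their group, and animals 4 and 5 the lowest. In CL KO libraries Hbb-bs ran from 6.81 through 18.7 to 30.4 CPM, with animals 2 and 3 lowest and 4 and 5 highest. In PI KO libraries it ran from 22.5 through 28.3 to 32.8 CPM. Again the CL libraries spanned a wide range that contained most of the PI values, and the groups overlapped.

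Hbb-bt, the minor beta gene, ran from 0.973 CPM through a median of 2.75 to 4.76 CPM in CL WT and from 2.10 through 2.91 to 5.40 CPM in PI WT. In CL KO it ran from 1.70 through 4.44 to 10.2 CPM and in PI KO from 4.92 through 5.41 to 6.22 CPM. Animals 1 and 6 were highest in both WT groups, animals 4 and 6 were highest in CL KO, and the groups compared with each other overlapped.

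Of the alpha genes, Hba-a2 ran from 1.48 CPM through a median of 3.91 to 10.5 CPM in CL WT and from 5.25 through 7.31 to 11.2 CPM in PI WT. In CL KO it ran from 1.76 through 5.24 to 15.7 CPM and in PI KO from 6.08 through 8.04 to 8.96 CPM. The same CL libraries were low as for the beta genes, animals 4 and 5 in WT and 2 and 3 in KO. Hba-a1 ran from 0.261 CPM through 1.06 to 2.53 CPM in CL WT and from 1.22 through 2.09 to 2.63 CPM in PI WT. Among KO libraries it ran from 0.575 through 2.31 to 5.47 CPM (CL) and from 1.89 through 2.51 to 3.44 CPM (PI). The second lowest CL WT level of Hba-a1, once solved, stood for 1.40 to 1.61 reads, under the limit of 3 reads, and that of CL KO for 2.94 to 3.23 reads. Differences of Hba-a1 that involve these libraries are therefore not measured at this depth with any precision.

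**Figure D1:**
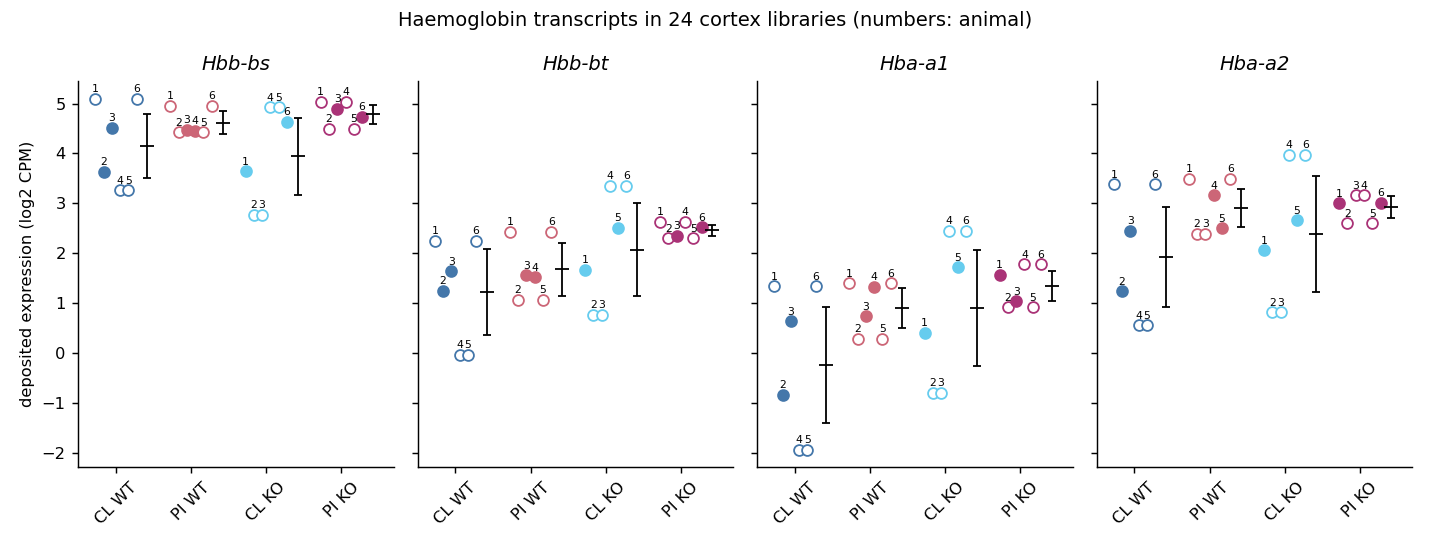
Deposited log2 CPM of each haemoglobin gene in each library, by group, with the animal's number above each point; open points are values drawn in to a quartile and shared by 2 libraries, and bars are the trimmed mean ± its standard error (n = 6). The CL libraries of both genotypes spread more widely than the PI libraries, and the low CL libraries are animals 4 and 5 in WT and 2 and 3 in KO for all 4 genes.

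The first question of the design was whether PI cortex held more haemoglobin RNA than CL cortex of the same genotype. Differences were tested with a moderated trimmed-mean test on the 4 inner values of each group, two-sided, with limma's variance step and Benjamini-Hochberg adjustment over all genes of a table, and calls needed an adjusted p under 0.05. In PI WT minus CL WT, 0 of the 4 genes were called, where 10.6% of the 14489 genes tested were, and 0 of 4 had an unadjusted p under 0.05, where 23.9% of genes did. Their deposited values overlapped between the groups in 4 of 4 genes, while 32.8% of all genes did not overlap. All 4 point estimates were above 0, with a median of 0.72 against 0.01 over all genes.

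Hbb-bs differed by 0.47 on the log2 scale between PI WT and CL WT (SE 0.48, 95% interval -0.56 to 1.50, moderated trimmed-mean test, adjusted p = 0.615). Hba-a2 differed by 0.97 (SE 0.75, interval -0.65 to 2.60, adjusted p = 0.483). The intervals allow a change of several fold in Hba-a2 and do not show that the sides were alike. Hbb-bt differed by 0.46 (SE 0.72, adjusted p = 0.764) and Hba-a1 by 1.14 (SE 0.90, adjusted p = 0.495). Leaving out CL WT animal 4 or 5 turned the difference of Hbb-bt to -0.10. A fit on the deposited values with the animal as a block called Hba-a1 (adjusted p = 0.0472) and Hba-a2 (adjusted p = 0.0347) higher in PI WT with limma, but that fit, whose spread is understated because the extremes had been drawn in, called 45.6% of all genes.

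In PI KO minus CL KO, 0 of the 4 genes were called, where 10.0% of 14338 genes were, and 0 of 4 had an unadjusted p under 0.05, where 24.9% of genes did. The values of 4 of 4 overlapped, and those of 34.3% of genes did not. Hbb-bs differed by 0.84 (SE 0.55, interval -0.36 to 2.03, moderated trimmed-mean test, adjusted p = 0.386). The blocked limma fit gave adjusted p = 0.0474 for Hbb-bs, in a comparison where it called 47.1% of all genes. Hbb-bt differed by 0.39, Hba-a1 by 0.43 and Hba-a2 by 0.54, with adjusted p from 0.746 to 0.808. Each of these latter values turned below 0, to between -0.27 and -0.12, when CL KO animal 2 or 3, the low libraries, was left out. The median difference of the 4 genes was 0.49, and that of all genes was 0.00 to 2 decimals.

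The study's stated aim was the comparison of WT with KO animals after stroke. In PI KO minus PI WT, 0 of 4 haemoglobin genes were called, where 0.0208% of 14452 genes were, and 0 of 4 had an unadjusted p under 0.05, where 5.75% of genes did. The values of 4 of 4 overlapped, and those of 14.1% of genes did not. Hbb-bt differed most, by 0.78 (SE 0.41, interval -0.10 to 1.67, moderated trimmed-mean test, unadjusted p = 0.0789, adjusted p = 0.854). Hbb-bs differed by 0.17 (SE 0.22, interval -0.31 to 0.66), Hba-a1 by 0.44 (SE 0.41) and Hba-a2 by 0.03 (SE 0.33, interval -0.69 to 0.74). In linear terms the interval of Hbb-bs spans 0.807-fold to 1.575-fold, the narrowest of the 4 in this comparison. On the deposited values limma called Hbb-bt (adjusted p = 0.0303), where it called 16.5% of all genes.

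In CL KO minus CL WT, 0 of 4 genes were called, where 0.0279% of 14323 genes were, and 0 of 4 had an unadjusted p under 0.05, where 5.73% of genes did. The values of 4 of 4 overlapped, and those of 13.5% of genes did not. Hbb-bs differed by -0.20 (SE 0.70, interval -1.70 to 1.31, moderated trimmed-mean test, adjusted p = 0.991), Hbb-bt by 0.85 (SE 0.89), Hba-a1 by 1.13 (SE 1.16) and Hba-a2 by 0.46 (SE 1.06). The sign of the Hbb-bs and Hba-a2 values depended on single libraries. Leaving out CL WT animal 1 or 6 gave 0.19 and leaving out CL KO animal 2 or 3 gave 0.29 for Hbb-bs. For Hba-a2, leaving out CL WT animal 4 or 5 gave -0.07 and leaving out CL KO animal 4 or 6 gave -0.22. The change from CL to PI was also compared between genotypes, as PI KO minus CL KO less PI WT minus CL WT. That interaction was 0.37 for Hbb-bs, -0.07 for Hbb-bt, -0.71 for Hba-a1 and -0.43 for Hba-a2, and 0 of 4 were called, nor were any of 14211 genes (0% called, 4.55% at an unadjusted p under 0.05, and 1940 genes by limma on the deposited values). Leaving out 1 library turned its sign in 4 of 24 cases for Hbb-bs, 7 for Hbb-bt and 4 for Hba-a2, and for Hba-a1 it ran from -1.41 to -0.02.

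**Figure D2:**
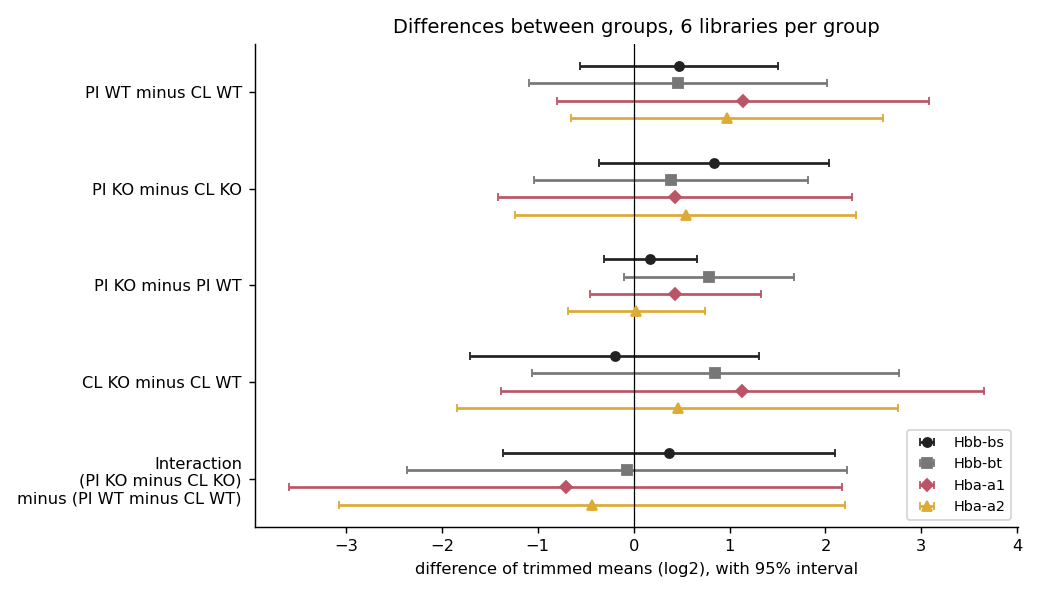
Difference of trimmed means on the log2 scale, with its 95% interval, for the 4 haemoglobin genes in the 5 comparisons, 6 libraries per group. Every interval includes 0; those of the PI KO minus PI WT comparison are the narrowest and those that involve CL groups are wide.

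The haemoglobin genes varied widely between animals in CL cortex and less in PI cortex. The interquartile range, which the deposited values give exactly, is described here without a test. In CL WT it was 1.83 for Hbb-bs, 2.29 for Hbb-bt, 3.28 for Hba-a1 and 2.83 for Hba-a2 on the log2 scale, where the median over 14450 genes with a mean of at least 1 CPM was 0.18. The number of those genes with a larger range in CL WT was 8 for Hba-a1, 13 for Hba-a2, 19 for Hbb-bt and 32 for Hbb-bs. The range of Hba-a1 rests on a second lowest level of 1.40 to 1.61 reads, under the limit of 3 reads, and is not measured with any precision. The genes counted were of all levels above the minimum, and low counts widen a range on the log2 scale. In PI WT the ranges were 0.54, 1.37, 1.11 and 1.10, where the median gene had 0.20, so the spread in CL was 1.68 to 3.41 times that in PI. In PI WT the number of genes with a larger range was 1359 for Hbb-bs, 55 for Hbb-bt, 127 for Hba-a1 and 134 for Hba-a2, so that the latter 3 were wide there too. The ratio of the CL to the PI range was larger in 19.8% of genes than in Hbb-bt, and in 4.26% to 8.15% than in the other 3.

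In KO animals the CL range was again wider than the PI range for all 4 genes. The CL KO ranges were 2.16 for Hbb-bs, 2.59 for Hbb-bt, 3.25 for Hba-a1 and 3.16 for Hba-a2, and the PI KO ranges were 0.54, 0.34, 0.86 and 0.56. The number of 14307 genes with a larger range in CL KO was 13 for Hba-a1 and 23 for Hbb-bs, the fewest and the most of the 4. The second lowest CL KO level of Hba-a1 stood for 2.94 to 3.23 reads, near the limit of 3 reads. The ratio of the CL to the PI range was 3.76 for Hba-a1 and 7.69 for Hbb-bt, the smallest and the largest of the 4, against a median of 0.96 over all genes. In linear terms the upper quartile of Hba-a2 in CL KO was 8.92 times the lower quartile, and in PI KO 1.47 times. Beside this spread, the correlation of Hbb-bs with log2 depth over 24 libraries was -0.05 (Spearman's rho -0.11, permutation p = 0.895 for r, adjusted 0.960 over 13 library measures).

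**Figure D3:**
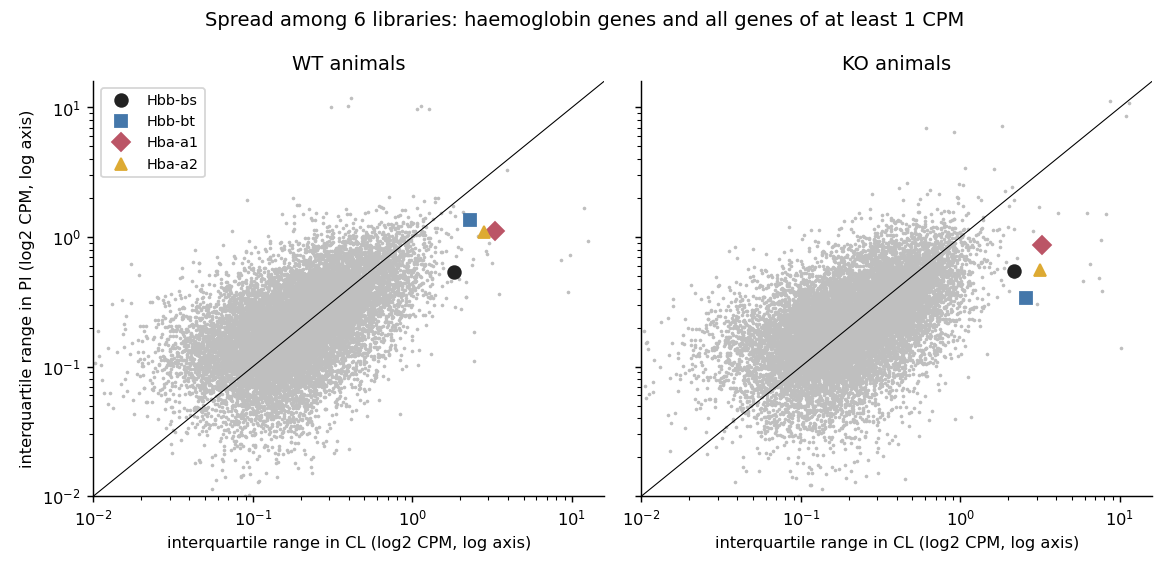
Interquartile range among the 6 CL libraries (x axis) and the 6 PI libraries (y axis) of a genotype, in log2 CPM on log axes, for all genes with a mean of at least 1 CPM (grey) and the haemoglobin genes (coloured), with the line of equal spread. The haemoglobin genes lie far to the right of the cloud and below the line in both genotypes.

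The 4 genes rose and fell together from library to library. Deviations from the group mean were correlated for the 6 pairs of genes over 24 libraries, with permutation within groups (100000 resamples). Pearson's r ran from 0.93 (Hbb-bs with Hbb-bt) to 0.97 (Hba-a1 with Hba-a2), and Spearman's rho from 0.93 to 0.95. The permutation p was 1e-05 or 2e-05, of which 1e-05 is the smallest that these resamples can give, and the Benjamini-Hochberg adjusted values were 1.2e-05 and 2e-05 over the 6 relations. These p-values can be too small, because libraries were permuted as separate units although each animal gave a CL and a PI library. Without the 2 libraries farthest from the median, r was 0.89 to 0.97. The pairs that share no coding sequence moved together as closely, with r = 0.95 for Hbb-bs with Hba-a1 and 0.96 for Hbb-bt with Hba-a2. Within the 12 CL libraries r was 0.95 to 0.99, and within the 12 PI libraries, where the spread is smaller, it was 0.71 to 0.84. With the drawn-in extremes set to the solved second values, r over 24 libraries was 0.92 to 0.97.

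The CL and PI libraries of 1 animal were compared next, to see whether animals high on one side were high on the other. Over 12 animals, with genotype and side centred, r was 0.44 for Hbb-bs, 0.59 for Hbb-bt, 0.57 for Hba-a1 and 0.44 for Hba-a2. None passed a permutation test within genotype after adjustment over the 4 relations (adjusted p = 0.168, 0.145, 0.145 and 0.168). Spearman's rho was 0.39, 0.58, 0.74 and 0.30, with adjusted permutation p of 0.0518 at the lowest. Without the 2 animals farthest on the CL axis r was 0.40 to 0.74. WT animals 1 and 6 were highest for Hbb-bs on both sides, and in the 6 WT animals r was 0.87 for Hbb-bs (exact permutation p = 0.0167, adjusted over 8 such values 0.133). In the 6 KO animals it was 0.05 (exact permutation p = 0.911), and KO animal 5 was among the highest in CL and the lowest in PI. The difference between the genotypes in this relation was not tested.

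Within a pair, the share of the major copy was lower in most KO than WT libraries, which is described without a test because it was noticed after the values had been seen. The ratio of Hbb-bs to Hbb-bt within a library, per kilobase, had a median of 8.14 in CL WT (5.86 to 11.1) and 8.52 in PI WT (6.45 to 11.4). In CL KO the median was 4.45 (2.73 to 5.97) and in PI KO 5.57 (5.12 to 6.56). On each side 5 of the 6 KO libraries lay below every WT library of that side. The ratio of Hba-a2 to Hba-a1 had medians of 5.26 in CL WT and 5.38 in PI WT, and of 3.75 in CL KO and 3.74 in PI KO. For this alpha ratio 6 of 6 KO libraries were below every WT library in CL and 3 of 6 in PI. In CL WT animals 4 and 5 Hba-a1, once solved, stood for 1.40 to 1.61 reads, under the limit of 3 reads, so their alpha ratio is not measured with any precision. Libraries that share their quartiles, such as animals 4 and 5 in CL WT and 2 and 3 in CL KO, have equal ratios and are not separate readings. The values were drawn in within groups, and the split of shared reads between copies is uncertain, so the ratio of 2 copies is less certain than their sum. The size of both copy ratios also depends on the transcript lengths used, which shift all groups by the same factor. The ratio of beta to alpha sums, which rests less on the split (the copies differ in length), had medians of 2.74 in PI WT and 3.01 in PI KO, with 0 of 6 PI KO libraries below the PI WT range. In CL it had medians of 3.99 in WT and 2.95 in KO, and 3 of 6 KO libraries lay below the WT range.

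**Figure D4:**
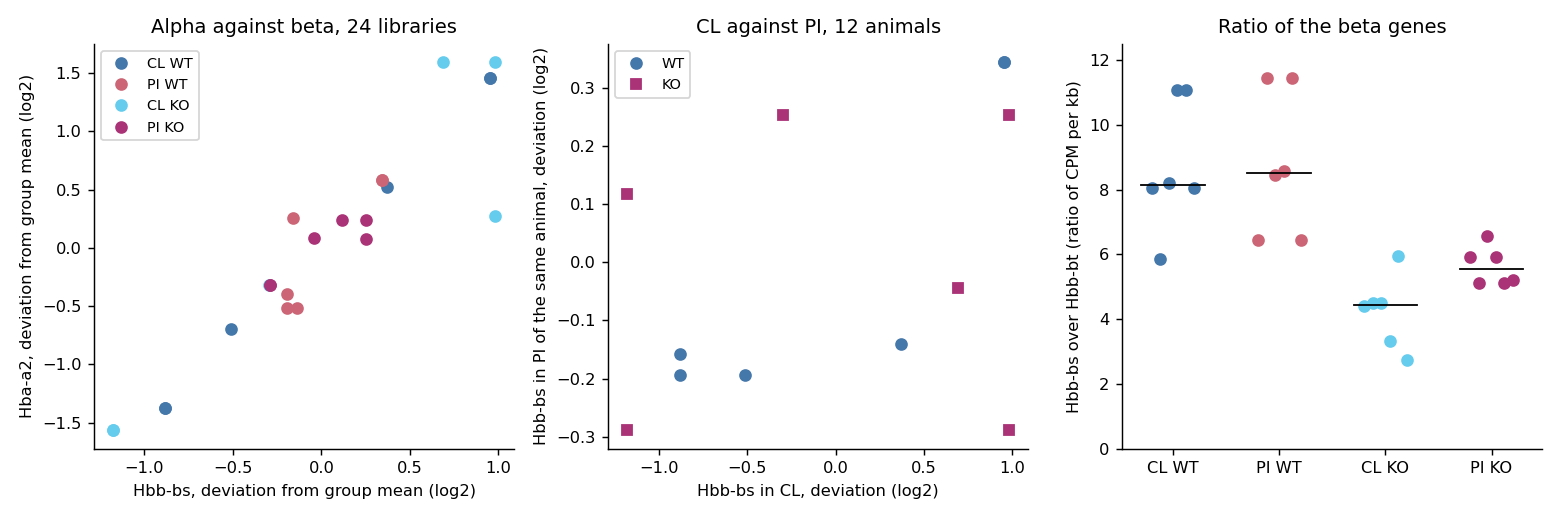
Left, deviation of Hba-a2 against that of Hbb-bs from the group mean (log2) in 24 libraries; middle, Hbb-bs in the PI library against the CL library of the same animal for 12 animals; right, ratio of Hbb-bs to Hbb-bt per kilobase in each library with the group median as a line. Alpha and beta genes lie along one line, CL and PI are only loosely related, and KO ratios (medians 4.45 and 5.57) lie below most WT ratios (medians 8.14 and 8.52); libraries with equal drawn-in values coincide.

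Other transcripts of blood cells were looked for, although retained blood need not bring them to a level that can be read. The 4 haemoglobin genes together took a median of 35.9 CPM, and rarer blood transcripts could lie too low to be listed. What a missing row means for retained blood was not tested. Of 30 red cell and erythroid genes, 11 had a row in all tables. The 19 others had a row in none of the 4 tables, so their levels could not be read. Among them were Alas2 (the erythroid enzyme that starts haem synthesis), Slc4a1 (band 3), Ahsp (the alpha globin chaperone), Klf1 and Gata1. The 11 are also expressed outside red cells, and 0 of 11 were called in any of the 5 comparisons. Over all genes, 10.6% were called in PI WT minus CL WT, 10.0% in PI KO minus CL KO and 0.0279% or less in the others. By the moderated trimmed-mean test, 1 of 11 had an unadjusted p under 0.05 in PI WT minus CL WT, where 23.9% of genes did. In PI KO minus CL KO 4 of 11 did, where 24.9% of genes did. The 11 had median differences of -0.12 for PI WT minus CL WT and -0.01 for PI KO minus CL KO. Of these, Ank1 (ankyrin 1, membrane skeleton) had the smallest p in PI WT minus CL WT, with a difference of -0.25 (moderated trimmed-mean test, adjusted p = 0.0737). Their summed level per library ran from 629 to 677 CPM for CL WT and from 590 to 623 CPM for PI WT. For KO animals it ran from 621 to 680 CPM (CL) and from 593 to 640 CPM (PI). Of 12 other globin genes, 1 was listed, Cygb (cytoglobin), which was not called in any comparison. Of 12 haem synthesis genes 11 were listed and 0 were called, against the same shares over all genes as for the red cell list.

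Platelet, leukocyte and lymphocyte genes were as thinly represented. Of 12 platelet genes 2 were listed, Gp1bb (a subunit of the von Willebrand factor receptor) and Itgb3 (integrin beta 3). Gp1bb fell by 0.36 in PI WT relative to CL WT (moderated trimmed-mean test, adjusted p = 0.0201), where the haemoglobin estimates were above 0, but it overlaps Sept5 and another gene on the same strand, so its reads are uncertain. Of 17 neutrophil and monocyte genes 1, Csf3r, was listed in all tables and was not called. S100a8 and S100a9, listed in the PI KO minus PI WT table alone, differed there by 1.16 (unadjusted p = 0.0268, adjusted p = 0.854) and 0.77 (adjusted p = 0.877) by the moderated trimmed-mean test and were not called. Of 18 lymphocyte genes 2 were listed, Trbc2 and Ighm (the immunoglobulin mu chain). Ighm fell by 0.51 in PI WT relative to CL WT (adjusted p = 0.0169, moderated trimmed-mean test). In PI KO minus CL KO neither was called, with differences of -0.17 for Gp1bb (adjusted p = 0.445) and -0.18 for Ighm (adjusted p = 0.480), and neither was called in the interaction.

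Of 15 genes that clear haemoglobin and haem 13 were listed, of which 3 were called in PI WT minus CL WT (10.6% of all genes were) and 2 in PI KO minus CL KO (10.0% of all genes), each of them higher in PI. Hmox1, the haem oxygenase that opens the haem ring, rose by 2.78 in WT (SE 0.36, adjusted p = 0.000448) and by 2.76 in KO (SE 0.35, adjusted p = 0.000452), by the moderated trimmed-mean test. Ftl1, the light chain of the iron store ferritin, rose by 0.35 in WT and 0.44 in KO, and Fth1, its heavy chain, rose by 0.19 in WT. Ftl1 has pseudogene copies and overlaps other annotated genes, so its reads are uncertain. The deviation of Hmox1 had r = -0.02 with the mean of the haemoglobin genes over 24 libraries, 0.09 in 12 CL and -0.27 in 12 PI libraries, as a description. None of the 13 was called between genotypes, where 0.0208% of all genes were called in PI and 0.0279% in CL. The receptor Cd163, which takes up haemoglobin bound to haptoglobin, was listed and not called, and Hp (haptoglobin) and Hpx (haemopexin) had a row in none of the 4 tables.

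Markers of vessels and brain cells were read beside the haemoglobin genes. Of 12 endothelial genes, 1 was called lower in each PI minus CL comparison, where 10.6% (WT) and 10.0% (KO) of all genes were called. Itm2a fell by 0.51 in WT, and its estimate of -0.48 in KO was not called. Slco1a4 fell by 0.48 in KO, and its estimate of -0.48 in WT was not called. The estimates of 10 of 12 were above 0 in WT (median 0.27) and of 9 of 12 in KO (median 0.14), none of which was called, and their summed level was 159 to 218 CPM in CL WT and 163 to 223 in PI WT. Of 7 listed pericyte and smooth muscle genes 0 were called. Among meningeal and choroid plexus genes Dcn (decorin) rose and Igf2 fell in both genotypes, and Ptgds fell in WT. Among microglial genes C1qa, C1qb and Cx3cr1 rose and P2ry12 fell in both genotypes, and Aif1 rose in WT. Of 8 astrocyte genes Gfap and Aqp4 rose in both genotypes, Gja1 fell in both and Slc1a2 fell in WT. Of 10 neuronal genes Nefl, Snap25 and Syt1 fell in both genotypes and Gad2 rose in KO, and of 8 oligodendrocyte genes Cnp fell in WT. A gene named above for 1 genotype only had an estimate of the same sign in the other, where it was not called. None of these lists had a gene called between genotypes, where 0.0208% of all genes were called in PI and 0.0279% in CL. The part of these lists in the haemoglobin values was not tested.

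Within groups, Hbb-bs was compared with 13 measures of a library, a family added after the data had been seen. Over 24 libraries it was related to the mean deviation of the 8 astrocyte genes, with r = -0.48 and Spearman's rho = -0.61 (permutation p = 0.00076 and 0.0005, adjusted over the 13 relations 0.00988 and 0.0065). The permutations of this family treated the 24 libraries as separate units, although each animal gave a CL and a PI library. Their p-values can therefore be too small. Without the 2 libraries farthest from the median of the astrocyte list r was -0.57 (permutation p = 0.00325, adjusted 0.0423). Within CL libraries r was -0.75 and within PI libraries -0.57, and each of the 8 genes alone had a negative r with Hbb-bs, from -0.35 to -0.12. The astrocyte list itself moved little, between -0.06 and 0.08 on the log2 scale. Hbb-bs moved between -1.18 and 0.98 in CL libraries and between -0.29 and 0.34 in PI libraries. None of the other 12 relations passed the adjusted threshold. The list of red cell genes had r = 0.46 (permutation p = 0.0451, adjusted 0.293), the endothelial list r = 0.40 (permutation p = 0.0839, adjusted 0.364), the pericyte and smooth muscle list r = 0.31 (permutation p = 0.244, adjusted 0.528, with r = 0.24 in CL and 0.85 in PI libraries) and the tilt of GC-rich against GC-poor genes r = 0.34 (adjusted permutation p = 0.516).

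**Figure D5:**
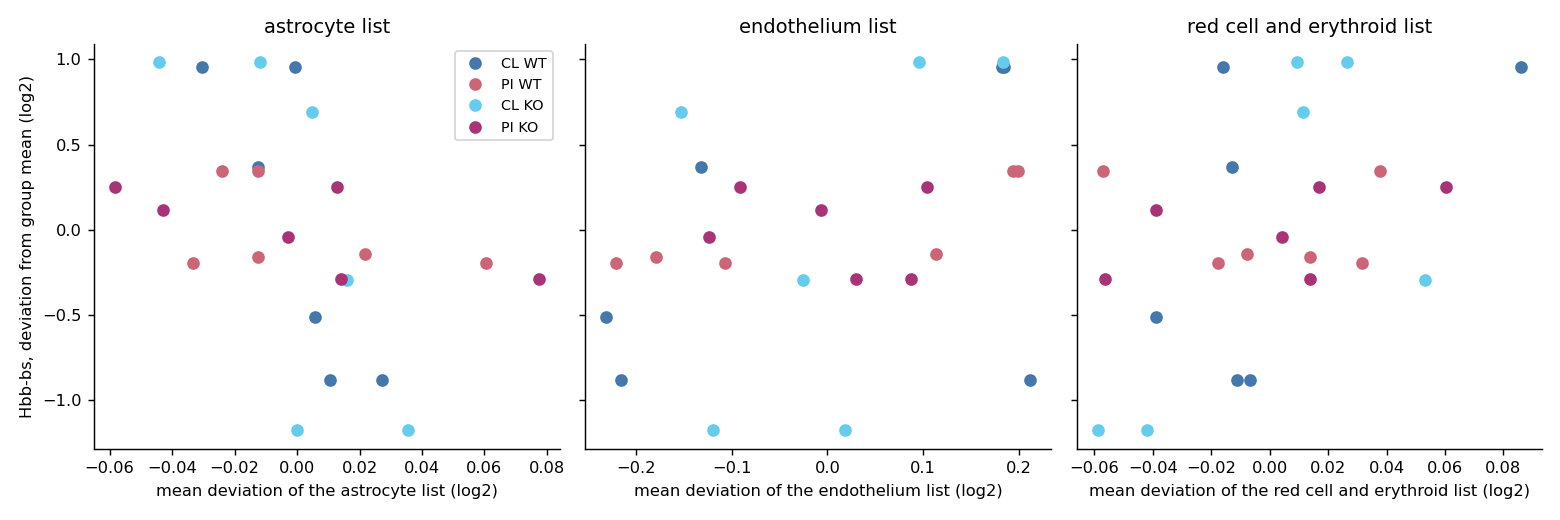
Deviation of Hbb-bs from its group mean (log2) against the mean deviation of the astrocyte list, the endothelium list and the red cell and erythroid list in 24 libraries, by group. The astrocyte list falls as Hbb-bs rises (r = -0.48), over a range of only -0.06 to 0.08; the relations with the other 2 lists (r = 0.40 and 0.46) did not pass the adjusted threshold.

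Single genes were ranked by how their deviations followed the mean of the 4 haemoglobin genes over 24 libraries, as a description with no test. Outside the 4, the 5 nearest of 14207 genes were Pcdhgb6 (r = 0.81), Gm42735 (0.81), Sp2 (0.81), Kif26a (0.80) and Map7d1 (0.80). Pcdhgb6 shares its last exons with other protocadherin genes, so its reads are uncertain, and in PI libraries alone r ran from -0.21 for Gm42735 to 0.71 for Kif26a. Among the blood-related lists the nearest was Slc25a37 (mitoferrin 1, which brings iron into mitochondria for haem synthesis), with r = 0.63 and rank 63, and r = 0.67 in CL and 0.55 in PI libraries. Slc25a37 overlaps other annotated genes. The platelet genes Itgb3 and Gp1bb had r = 0.58 and 0.48 (0.10 and 0.39 in PI libraries alone). The median over the red cell list was 0.10, that over the 11 haem synthesis genes -0.06, and that over all genes 0.00.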

How the data were processed

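The authors deposited log2 CPM in 4 tables, 1 for each pair of groups, per the file headers and names, and each table was scaled on its own. The genome build is mm10, per the submitters' processing notes. The aligner, counting, use of strand, annotation, gene filter and scaling are not given in the sources used here. Per the labels' protocols, TRIzol was used for extraction, TURBO DNA-free against DNA, RiboCop on 600 ng for rRNA depletion and the CORALL kit for libraries. Columns were matched to samples through the labels (0 unused columns).

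In 100% of genes and groups the 2 lowest and the 2 highest values were tied at the group's quartiles, which no label records. The 4 inner values were solved from these. The difference of their means was tested with the Winsorized sum of squares as error, passed to limma 3.58.1 in R 4.3.3 with a trend of variance with level, and adjusted by Benjamini-Hochberg over a table. No term for the animal was fitted in this main test. The interaction used genes in both PI and CL tables. A permutation of group labels was not used for differences, because the values had been drawn in within groups. Correlations and figures were made in Python 3.11.15 with SciPy 1.17.1 and matplotlib 3.10.9.

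Depth was taken as the step that made low values whole multiples of 1 read (tolerance 0.03 read, which held for 78.4% to 90.1% of low values). Adding 0.5 CPM, a minimum of 1 CPM, no trend, centring on the median gene, limma on the deposited values, the animal as a block and leaving out each library were tried as alternatives. No batch is named in the labels, and the groups are 6 animals each. The members, the gene lists and the tests were chosen with earlier results of these data known. Genes outside the members were named if called in a list, or had the smallest p of a list, or were the 5 nearest by correlation; a few others (Slc25a37, Cd163, Trbc2, S100a8, S100a9) were named after their values were seen. Same-numbered CL and PI libraries come from 1 animal, per the labels. Over genes, their deviations correlated by -0.005 to 0.23 (median 0.13). Among the PI libraries of the same genotype, 8 of 12 CL libraries correlated best with that of their own animal.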

Additional observations from a re-analysis of the deposited data

Results flagged for a closer look

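The ratio of Hba-a2 to Hba-a1 per kilobase in the CL KO library of animal 5 was 2.425, far below the other 5 CL KO libraries, which lay between 3.62 and 3.96. Both values of that library are inner values, while 4 of the other libraries hold drawn-in quartiles for both genes, which brings those 4 close together. The same library had the highest ratio of beta to alpha of its group, 3.51, and the highest ratio of Hbb-bs to Hbb-bt, 5.97. The levels of the 4 genes give no such gap, as the 2 lowest and the 2 highest values of each group are tied.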

How the results depend on the processing

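Over the 4 genes and 5 comparisons, 114 of 120 values from alternatives other than leaving out a library kept their direction and stayed on their side of the threshold, and 6 passed it. With limma on the deposited values and the animal as a replicate block, the differences of Hba-a1 (1.14) and Hba-a2 (0.97) in PI WT minus CL WT and of Hbb-bs (0.84) in PI KO minus CL KO passed. In PI KO minus PI WT, where the numbers pair different animals, Hbb-bt (0.78) and Hba-a1 (0.435) passed with that block, and Hbb-bt (0.78) without it. Counts of called genes moved with the test. Without the trend they were 1015 in PI WT minus CL WT and 739 in PI KO minus CL KO. With limma on the deposited values they were 6459, 6666, 2388, 2311 and 1940 in the order of the 5 comparisons of the report, and with the replicate block 6614, 6759, 1800, 1868 and 2216.

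Leaving out 1 library called 0 of the 4 genes in any comparison and turned the direction of 37 of 288 values. In PI WT minus CL WT the values ranged from 0.13 to 0.85 for Hbb-bs, -0.10 to 0.87 for Hbb-bt, 0.45 to 1.74 for Hba-a1 and 0.44 to 1.56 for Hba-a2, with 1117 to 1468 genes called. In PI KO minus CL KO they ranged from 0.35 to 1.20, -0.15 to 0.91, -0.27 to 1.03 and -0.12 to 1.22 in the same order, with 900 (without CL KO replicate 5) to 1602 genes called, and 922 without PI KO replicate 2. In PI KO minus PI WT they ranged from 0.07 to 0.34, 0.53 to 1.13, 0.18 to 0.61 and -0.16 to 0.26, with 3 to 4 genes called. In CL KO minus CL WT they ranged from -0.56 to 0.29, 0.29 to 1.39, 0.45 to 1.84 and -0.22 to 1.12, with 3 to 7 genes called (7 without CL KO replicate 1). The interaction ranged from -0.12 to 0.73, -0.61 to 0.49, -1.41 to -0.02 and -1.09 to 0.24, with 0 genes called.

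The 10 correlations among the haemoglobin genes and between sides stayed on their side of the threshold under the 4 alternatives run. Among the library measures the weak relation of Hbb-bs to the haem clearance list (r = 0.01) turned negative with Spearman's rho (-0.099), recovered extremes (-0.0015), median centring (-0.029) and without the 2 farthest libraries (-0.15), and that to the oligodendrocyte list turned to -0.026 with Spearman's rho. Depth limits Hba-a1 most, whose low CL WT levels are under 3 reads, and the drawn-in extremes limit every statement on spread to the middle of each group.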
